A study of Caenorhabditis elegans with 96 samples.

Results

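Recombinant inbred lines of the nematode Caenorhabditis elegans were divided by whether they expressed C39B5.10, a short protein-coding gene on the left arm of chromosome III that was transcribed in CB4856 and not in N2. Of 85 lines, 42 carried the transcript at or above the limit given below (positive), 28 had at most 3 reads (negative), and 15 fell between these limits and were left out, so 70 lines were compared. The groups were chosen by the C39B5.10 level itself. A line was positive when its CPM (read counts scaled to the library's total of gene counts) reached 7.33, the lowest CB4856 library divided by 4. The division was meant to read the parental allele at that place on chromosome III, and the other genes did not bear this out. No difference between positive and negative lines was detected at nearby genes on chromosome III. Near the right end of chromosome I, 15 genes differed in level between them, with overlapping ranges. The groups are therefore named here by the state of C39B5.10 and not by a chromosome III genotype.

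Each line (names beginning QX) is a recombinant inbred advanced intercross line of the laboratory strain N2 and the wild isolate CB4856, and was sequenced as 1 library. The parents had 4 libraries (N2) and 7 libraries (CB4856). All worms received the treatment labelled Cntrl, were fed Escherichia coli HT115 after hatching and were collected whole as L4 larvae, and all RNA was total RNA. The titles place the 96 libraries in 7 batches, numbered 2, 3, 4, 6, 7, 8 and 9.

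In such a population every inherited segment comes from one parent or the other. A gene that is transcribed in only 1 parent can act as a marker of its own segment, provided that its level follows that segment. A transcript whose level follows the segment in which its gene lies is said to vary locally. A transcript whose level follows a segment elsewhere in the genome is said to vary distantly. Neighbouring markers on a chromosome are usually inherited together, and the agreement between them decays with distance.

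C39B5.10 (WBGene00016528) lies on the minus strand of chromosome III at 2239328 to 2239637 in WBcel235. It had 0, 0, 0 and 1 reads in the N2 libraries and 694 to 935 reads in the CB4856 libraries, with a median of 717. Positive lines had 312 to 1154 reads, with a median of 620.5, or 26.9 CPM, and 27 of the 42 lay below the lowest CB4856 library, at 29.3 CPM. Negative lines had 0 to 3 reads, with a median of 1.5, and the 15 lines left out had 4 to 11 reads, with a median of 7. These values chose the groups and are given as a description. No line lay between 11 and 312 reads, so the lower limit of the positive group did not divide a continuous range, and the lowest positive line was 29.3 times the highest line left out in CPM. The limit at 3 reads did divide one, since negative lines with 3 reads and left-out lines with 4 reads were neighbours. The states were unevenly spread over batches. Batch 8 held 14 positive lines and 1 negative line, while batch 9 held 4 and 8, and batch 2 held 1 and 6.

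**Figure D1:**
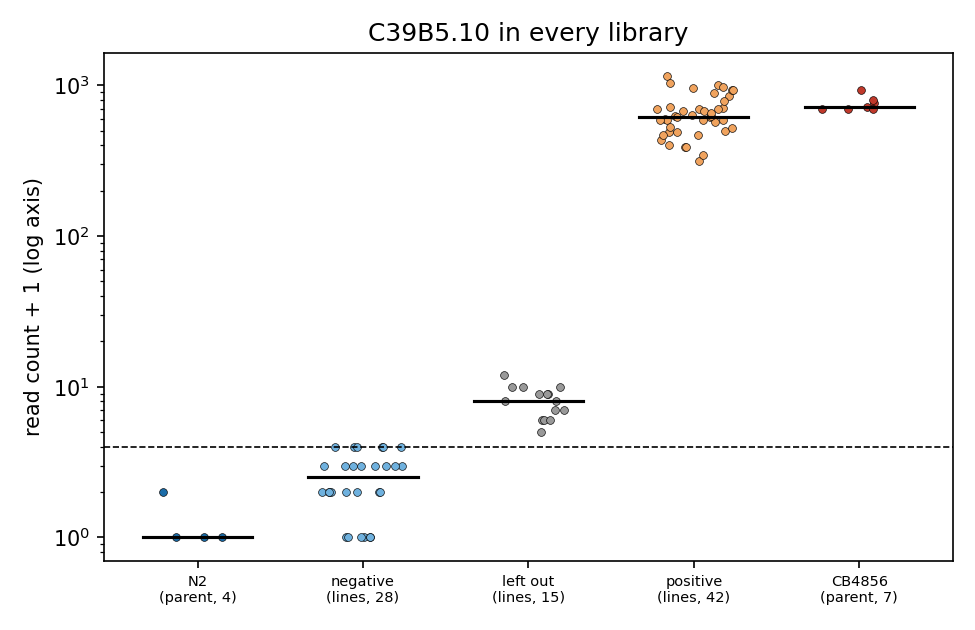
Read count of C39B5.10 plus 1 (log axis) in every library, by group; bars are medians and the dashed line is the limit of 3 reads. Positive lines (312 to 1154 reads) overlap the range of CB4856 (694 to 935), and no library lies between 11 and 312 reads.

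The first question was whether the neighbours of C39B5.10 were divided with it. The closest gene with a clear parental difference was fbxa-38 (WBGene00016522, III 2224672 to 2227198), a member of the F-box A family whose start lies 14.7 kb from that of C39B5.10. An F-box recruits target proteins to ubiquitin ligases. fbxa-38 had 35 to 75 reads in N2 and 0 to 1 in CB4856, and each of the 85 lines had either 25 or more reads or 2 or fewer. Among positive lines, 22 had the CB4856 state of fbxa-38, with 0 to 2 reads, and 20 had the N2 state, with 31 or more reads. Among negative lines, 16 had the CB4856 state and 12 had the N2 state. The same parental state at both genes was seen in 48.6% of 70 lines, and no association was detected (Fisher's exact test, two-sided, p = 0.808, adjusted p = 1).

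fbxa-38 falls short of the minimum of 2 CPM set for marker genes, and its test is from a larger set of 151 genes with a minimum of 0.6 CPM, chosen after the data were seen. In that set, 15 genes of chromosome III had the parental state of C39B5.10 in 47.1% to 56.5% of lines, and 0 of 151 genes passed, with 12 at an unadjusted p under 0.05. With the minimum of 2 CPM, the range was 48.6% to 56.5% over 7 genes of chromosome III. Of the 77 such marker genes over all chromosomes, 0 were associated with C39B5.10 state after adjustment (0.0% by Fisher's exact test). There were 5 with an unadjusted p under 0.05, all neighbours on chromosome V, with starts from 3284929 to 3413310. Coverage was uneven, with 1 marker gene on X and 1 on chromosome I, C27C7.1 at 11439289, so the right end of chromosome I was not covered. Other marker genes of the left arm of chromosome III were compared with one another. pals-24 and WBGene00016225, a pseudogene, had the same state in all 79 lines scored at both. pals-24 and T12B5.15 agreed in 83.3% of lines at 0.834 Mb, and fbxa-38 and T12B5.15 agreed in 61.2% of lines at 1.27 Mb. With its nearest marker gene besides C39B5.10, WBGene00014979 at 0.948 Mb, fbxa-38 agreed in only 62.4% of lines. Over all chromosomes, pairs of marker genes 1 to 2.5 Mb apart that did not include C39B5.10 agreed in a median of 67.5% of lines.

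The fbxa-38 state of the lines left out was counted too. Of the 15, 13 had the CB4856 state of fbxa-38 and 2 had the N2 state. Over the 43 lines that were negative or left out, the 29 with the CB4856 state of fbxa-38 had 0 to 11 reads of C39B5.10, with a median of 3. The 14 lines with the N2 state had 0 to 6 reads, with a median of 1. These ranges overlap, they use the values that defined the groups, and the split was made after they were seen, so no test is given.

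**Figure D2:**
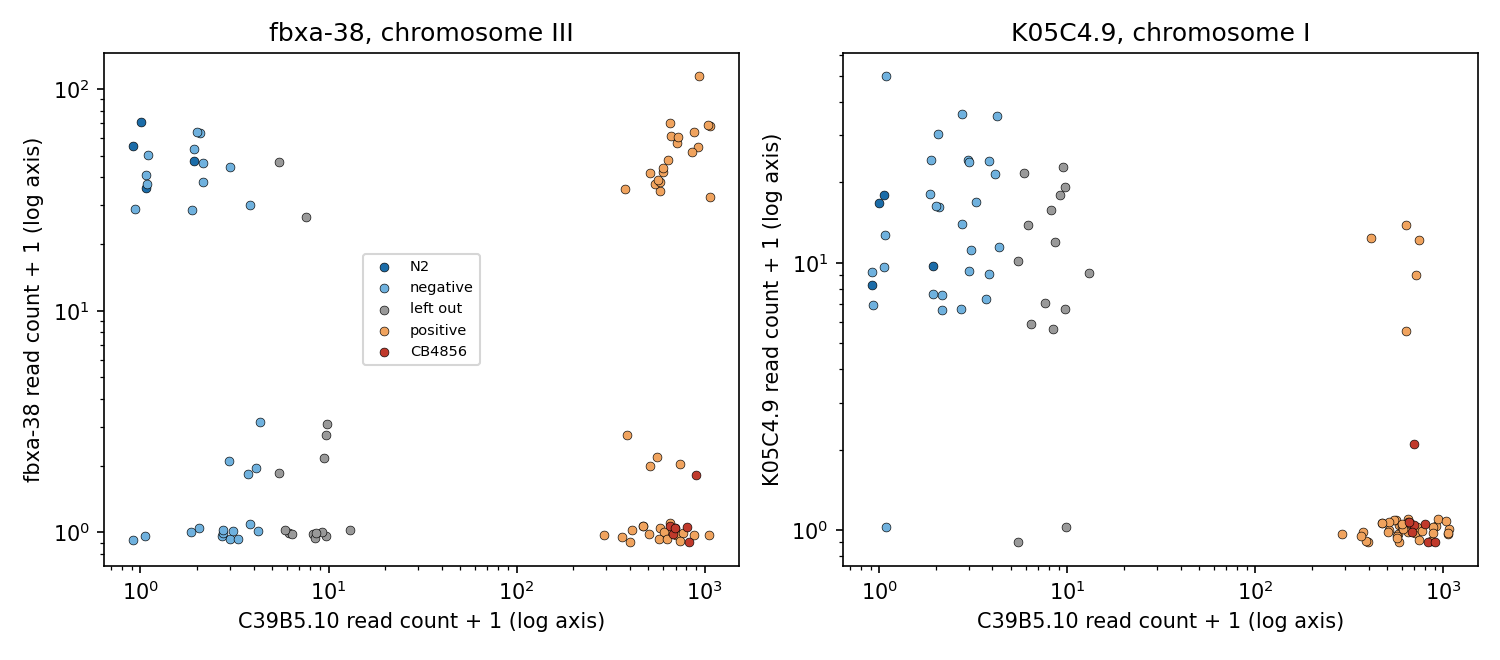
Read count plus 1 of fbxa-38 (left) and K05C4.9 (right) against that of C39B5.10, log axes, 1 point per library with a small random shift. fbxa-38 shows both levels on either side of the C39B5.10 gap, whereas K05C4.9 is at 0 in 37 of 42 positive lines and above 0 in 27 of 28 negative lines.

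Expression of all genes was then compared between positive and negative lines with batch in the model. Of 16139 genes tested besides C39B5.10, 15 passed an adjusted p of 0.05 (0.0929%), 7 higher in positive lines (0.0434%) and 8 lower (0.0496%). All 15 lay on chromosome I, between 13.2 and 14.9 Mb. An unadjusted p under 0.05 was seen for 966 genes (5.99%). On chromosome III, edgeR passed 0 of 2422 genes and DESeq2 passed 0, and 122 genes had an unadjusted p under 0.05 in edgeR (5.04%). Within 2 Mb of C39B5.10, 0 of 557 genes passed and 28 had an unadjusted p under 0.05 (5.03%).

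The excess of low p-values was on the right of chromosome I. In bins of 1 Mb that held at least 20 tested genes, 34 of 131 genes from 14 to 15 Mb on chromosome I had an unadjusted p under 0.05. The numbers were 30 of 141 genes (21.3%) from 13 to 14 Mb and 31 of 150 (20.7%) from 12 to 13 Mb. The next highest bin of the genome, on chromosome II, had 13.2%, and the bin of chromosome III that holds C39B5.10 had 3.33%. With the minimum of 0.6 CPM, the marker gene farthest right on chromosome I was WBGene00077772 at 11.8 Mb. It had the parental state of C39B5.10 in 65.7% of 70 lines (Fisher's exact test, p = 0.00355, adjusted p = 0.456 over 151 genes).

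**Figure D3:**
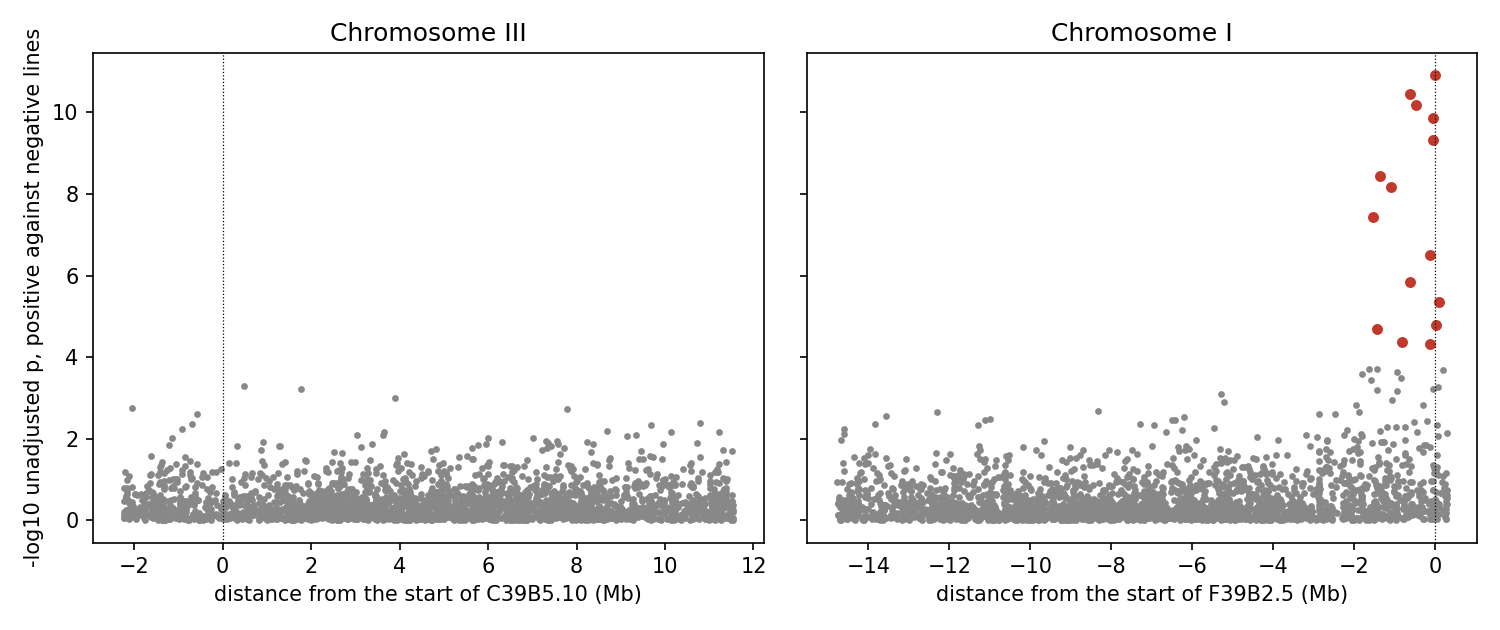
Unadjusted p on a -log10 scale for positive against negative lines, by distance from the start of C39B5.10 on chromosome III and of F39B2.5 on chromosome I; red points are the 15 genes with an adjusted p under 0.05. The raised points lie within about the last 2 Mb of chromosome I, and none lies on chromosome III.

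Of the called genes, K05C4.9 and fipr-22 came closest to presence in one group and absence in the other. K05C4.9 (WBGene00010585, I 14726281 to 14730738) had 8 to 17 reads in N2 and 0 or 1 in CB4856. It had 0 reads in 37 of 42 positive lines, and 0 to 51 reads, with a median of 12.5, in negative lines, of which 1 was at 0. The difference between positive and negative lines was -3.62 on the log2 scale (SE 0.49, adjusted p = 1.25e-06). fipr-22 (WBGene00007989, I 14155429 to 14156336) belongs to a family of small peptides related to those induced by fungal infection. It had 1 to 43 reads in N2 and 0 in all CB4856 libraries, where a count of 0 allows up to 3 reads. In positive lines 39 of 42 had 0 reads, and every negative line had 1 to 70 (log2 difference -3.98, SE 0.50, adjusted p = 1.85e-07).

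C37A5.3 (WBGene00014698), whose annotated end lies next to the start of fipr-22 at 14155296, showed the same direction at lower counts. It had 3 to 16 reads in N2, 0 to 3 in CB4856, 0 to 34 in negative lines with a median of 4.5, and 0 to 16 in positive lines with a median of 0. The ranges of the lines overlapped, and the log2 difference was -2.51 (SE 0.47, adjusted p = 0.00213, or 0.0512 without batch 8). A gene with the opposite direction was fbxa-103 (WBGene00008612, I 14287826 to 14295954), a further F-box A gene. It had 0 or 1 reads in N2 and 5 to 73 in CB4856. All 42 positive lines had 1 to 21 reads with a median of 8, and 19 of 28 negative lines had 0 and the others up to 9 (log2 difference 3.27, SE 0.42, adjusted p = 2.68e-07).

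clpr-1 (WBGene00012233, I 13676255 to 13677792) had 0 to 8 reads in N2 and 1 to 11 in CB4856. Its median was 13.5 reads in positive lines and 1.5 in negative lines, with overlapping ranges of 0 to 42 and 0 to 19 (log2 difference 2.49, SE 0.37, adjusted p = 1.38e-05). ZK1053.3 (WBGene00014198, I 13246853 to 13249778) had 5 to 7 reads in N2 and 69 to 393 in CB4856. Positive lines had 1 to 128 reads with a median of 30, and negative lines had 2 to 33 with a median of 5 (log2 difference 2.43, SE 0.39, adjusted p = 6.67e-05). Positive lines thus ranged from the level of N2 into the range of CB4856 at ZK1053.3, the called gene farthest to the left. Most did not reach that range, and 35 of the 42 lay below every CB4856 library in CPM.

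Genes expressed in every library differed by less. F39B2.5 (WBGene00009556, I 14775184 to 14776663) had the smallest p. Its level was 18.6 to 28.5 CPM in N2 and 11.4 to 15.3 CPM in CB4856. It was 13.2 to 30.1 CPM in negative lines, with a median of 20.9, and 6.23 to 28.3 CPM in positive lines, with a median of 13.2. The log2 difference between positive and negative lines was -0.72 (SE 0.09, adjusted p = 9.89e-08), and 21 of 42 positive lines lay below every negative line. sol-2 (WBGene00010587, I 14721742 to 14725967) encodes an auxiliary protein of the GLR-1 glutamate receptor. Its level was 0.849 to 1.88 CPM in N2, 1.69 to 2.69 CPM in CB4856, 0.637 to 2.25 CPM in negative lines and 0.978 to 5.37 CPM in positive lines. The log2 difference was 1.03 (SE 0.13, adjusted p = 4.37e-07), and 32 of 42 positive lines lay above every negative line. The same gene exceeded every CB4856 library in 23 positive lines. The exons of sol-2 overlap those of K05C4.10 and K05C4.2, and the reads carry no strand, so these genes cannot be told apart where they overlap.

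The pseudogene WBGene00012290 (I 13412425 to 13413172), whose exons overlap W05H12.4, had a log2 difference of 1.18 (SE 0.17, adjusted p = 8.45e-06). Its median was 1.00 CPM in positive and 0.426 CPM in negative lines, with overlapping ranges. F11C3.1 (WBGene00008695) had a median of 0.965 CPM in positive and 1.64 CPM in negative lines (log2 difference -0.80, SE 0.16, adjusted p = 0.00613), and passed in 13 of 17 settings, with calls lost without batch 4 or 7 (adjusted p = 0.136 and 0.0837). W08E3.4 (WBGene00012345) had medians of 0.768 and 1.77 CPM, and its ranges in both groups, 0.269 to 7.98 and 0.849 to 7.74 CPM, were broad and overlapping (log2 difference -1.44, SE 0.31, adjusted p = 0.0232). It passed in 11 of 17 settings, and without batch 6, 7, 8 or 9 its adjusted p was 0.109, 0.337, 0.129 and 0.232.

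The 4 remaining genes differed by less than 1.5-fold. bath-40, which encodes a protein with BTB and MATH domains, had a median of 163.6 CPM in positive and 194.5 CPM in negative lines (log2 difference -0.26, SE 0.05, adjusted p = 4.99e-04). F39B2.3 had a log2 difference of 0.26 (SE 0.06, adjusted p = 0.0201). usp-3, which encodes a ubiquitin-specific protease, had one of 0.29 (SE 0.07, adjusted p = 0.0464). exoc-8, which encodes a subunit of the exocyst that tethers secretory vesicles, had one of -0.19 (SE 0.04, adjusted p = 0.0477). The last 2 were close to the threshold, and usp-3 passed in 8 and exoc-8 in 5 of 18 settings, and F39B2.3 in 13. For every gene the settings counted include the main comparison. They also include a required fold above 1.5, which these 4 genes could not pass. F39B2.3 lost its call without batch 4, 7 or 9 (adjusted p = 0.260, 0.145 and 0.239). Within batches, 13 of the 15 genes had the same sign in all 7 batches, and sol-2 and F39B2.3 in 6. In batches 2, 3 and 8 the positive or the negative group held only 1 line, and the same lines had called the genes.

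**Figure D4:**
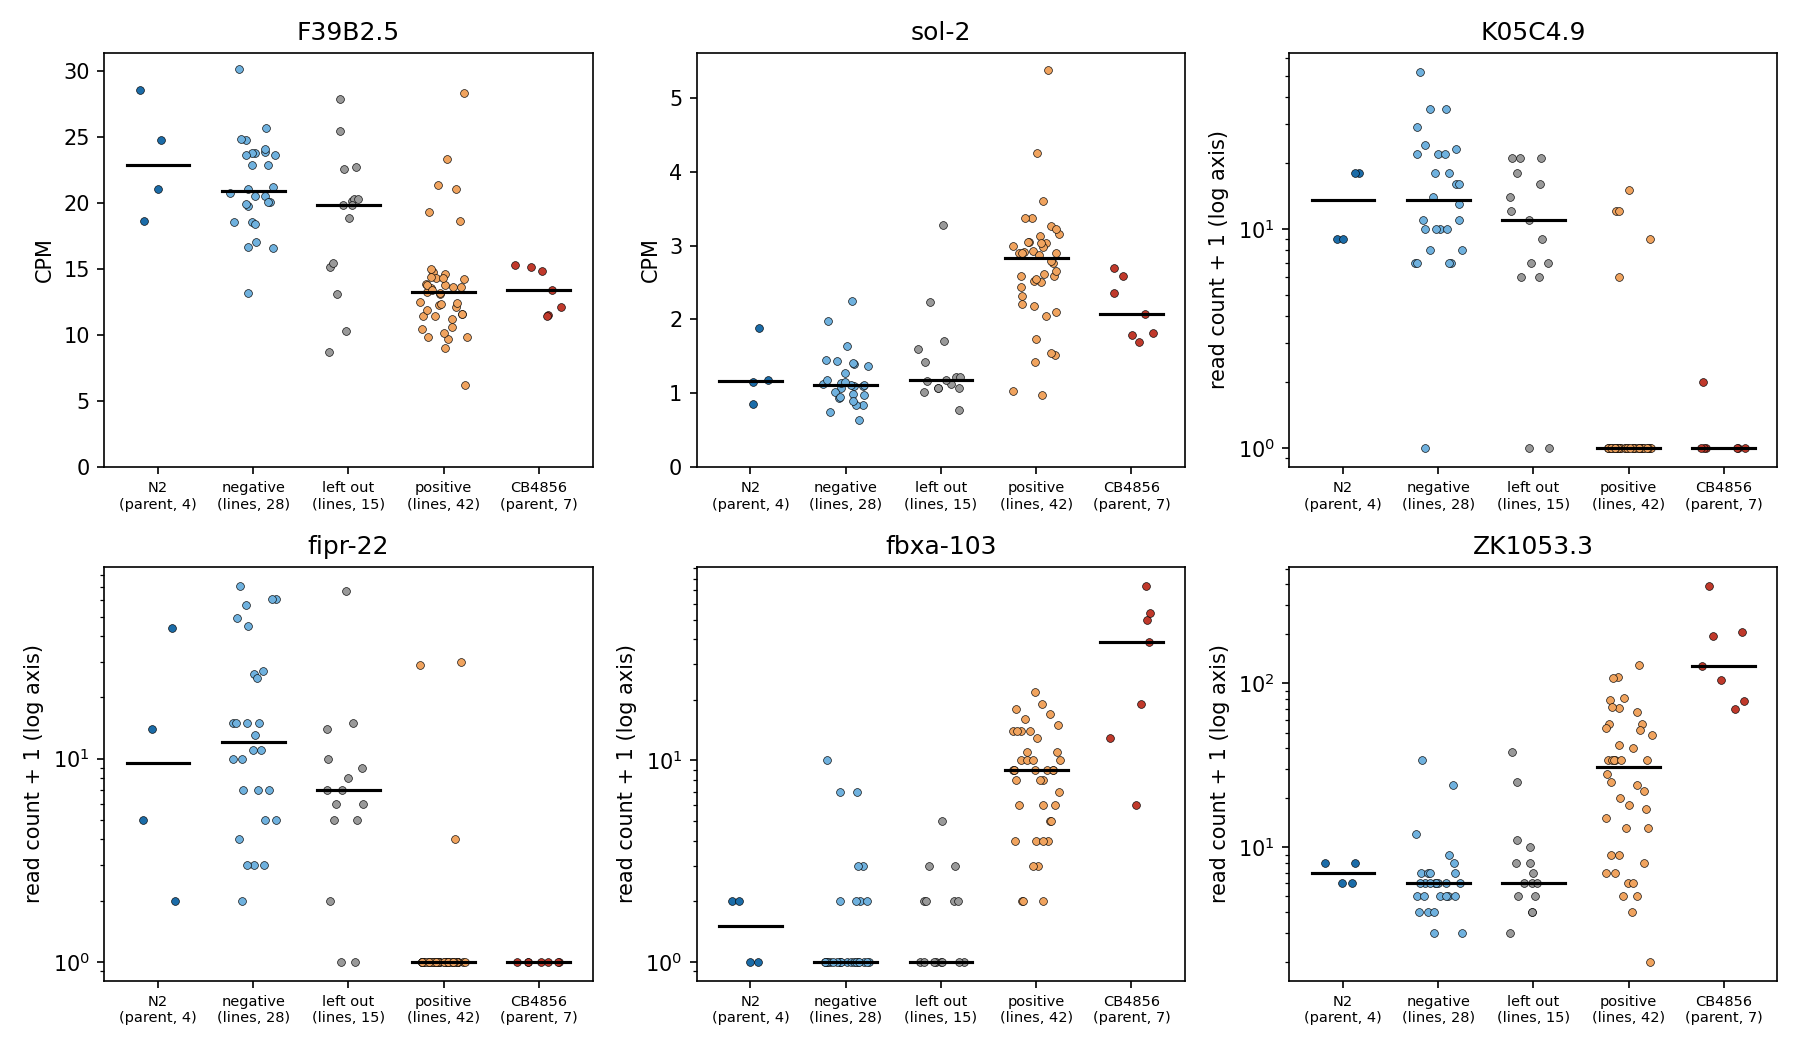
Levels of 6 called genes of chromosome I in every library, by group: CPM for F39B2.5 and sol-2, read count plus 1 on a log axis for the others; bars are medians. The medians of negative and left-out lines lie near that of N2. Positive lines have medians near CB4856 for F39B2.5, K05C4.9 and fipr-22, below it for fbxa-103 and ZK1053.3 (8 and 30 reads against 38 and 127) and above it for sol-2 (2.83 against 2.07 CPM).

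Some lines departed from their group at 1 or more of these genes. The 5 positive lines with K05C4.9 reads were QX536, QX552, QX533, QX591 and QX572, with 11, 11, 8, 14 and 5 reads. All 5 had more F39B2.5 than any CB4856 library in CPM, and F39B2.5 lies within 0.1 Mb of K05C4.9. Only QX572 among them had fipr-22 reads, 28, and C37A5.3 reads above 3, 14. QX555 was the reverse, with 29 reads of fipr-22 and 16 of C37A5.3 but 0 of K05C4.9. QX560 had 3 fipr-22 reads, 1 of C37A5.3 and 0 of K05C4.9. A count of 0 allows up to 3 reads, so a departure of QX560 at fipr-22 was not clear. fbxa-103, which lies between fipr-22 and K05C4.9, had 4 to 18 reads in these 7 positive lines. One negative line, QX500, had 0 reads of K05C4.9 and 53 of sol-2, but 14 of fipr-22 and 0 of fbxa-103. These lines were picked for their values, and no test is given.

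The parents gave a separate measurement of the same genes. Between CB4856 and N2, 5036 of 14858 genes passed (33.9%), so a passing gene is common in that comparison. Of the 15 genes, 11 were tested in the parents and 9 passed, all 9 with the sign seen in the lines. A shared sign was common too. Of 5031 genes that passed in the parents and were tested in the lines, 60.8% had the same sign in both. The share was 78.2% of 101 genes on chromosome I from 13 Mb, which include these 9. The largest parental differences among the 11 were 5.86 for fbxa-103 (SE 1.01, adjusted p = 0.00142) and 4.80 for ZK1053.3 (SE 0.59, adjusted p = 1.13e-04), each larger than that in the lines. F39B2.5 had -0.76 in the parents (SE 0.13, adjusted p = 0.00102) against -0.72 in the lines. exoc-8 had -0.15 (SE 0.07, adjusted p = 0.104) and bath-40 had 0.04 (SE 0.07, adjusted p = 0.694), so bath-40 was lower in positive lines with no such difference detected between parents. The fit with batch as a block kept only batches 3, 6, 8 and 9, which held both parents. It left out the CB4856 libraries of the other batches. In that fit, 2352 genes passed in the parents and 7 of 13 called genes that were tested. fipr-22 and K05C4.9, which the fit without the block did not test, had parental differences of -6.88 (adjusted p = 0.0394) and -6.64 (adjusted p = 0.0390), fitted values that depend on counts at or near 0 in CB4856. The adjusted p with the block was 0.0720 for sol-2, 0.0797 for F39B2.3, 0.0681 for usp-3 and 0.0964 for F11C3.1.

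**Figure D5:**
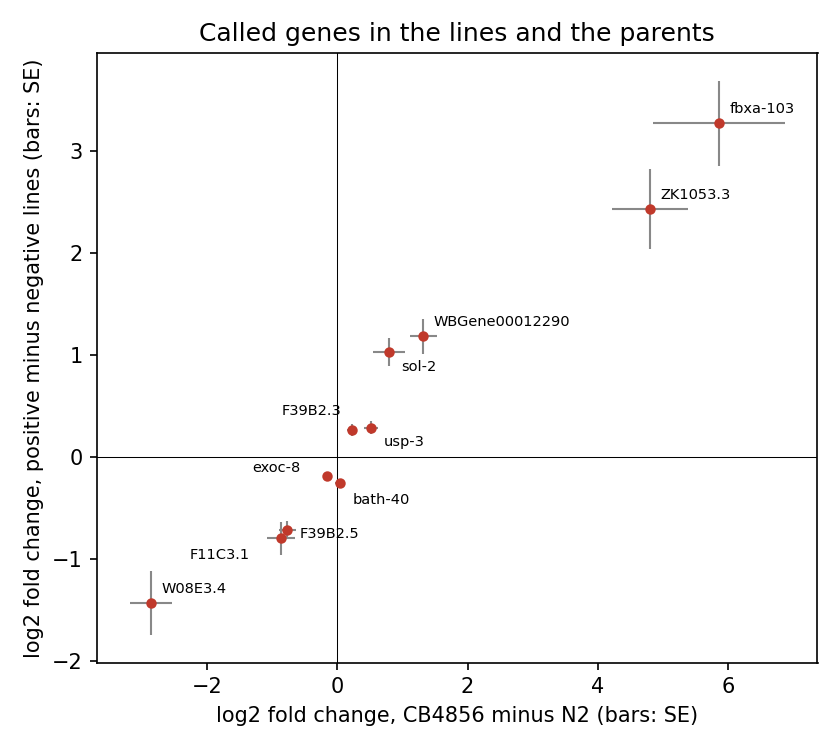
Log2 difference between positive and negative lines against that between CB4856 and N2 for the 11 called genes tested in both; bars are standard errors. Points lie in the lower left and upper right except bath-40, at 0.04 between parents and -0.26 between lines.

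The 15 lines left out were compared as a group of their own, a test added after the data were seen. Left-out against negative lines, 0 of 16262 genes passed in edgeR (0.0%), with 1515 at an unadjusted p under 0.05. Positive against left-out lines, 11 genes passed (0.0676%), 10 on chromosome I and ZK673.1 on chromosome II, a gene singled out after its values were seen. Of the 15 genes called between positive and negative lines, 8 passed in that comparison, which reuses the same positive lines. At most of the 15 genes, 12 of the 15 left-out lines lay nearer the median of negative lines than that of positive lines. The numbers were 27 of 28 negative lines and 4 of 42 positive lines. Those lines chose the genes and gave the medians, so their numbers are only a scale.

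Around C39B5.10 on chromosome III, none of the 20 genes tested within 0.1 Mb passed in the lines, and 5 of the 17 tested in the parents did (33.9% over all genes). With batch as a block, 3 of 19 passed in the parents (15.2% over all genes), and 2 of the 5 were among them. In that fit, which also used fewer CB4856 libraries, ppm-1.D (adjusted p = 0.112), Y54F10BM.9 (adjusted p = 0.0618) and Y54F10BM.6 were not called. Y54F10BM.3, 42.7 kb away, differed by -2.36 between parents (adjusted p = 0.00119) and by -0.30 between lines (SE 0.35, adjusted p = 0.944). Y54F10BM.6, 23.9 kb away, differed by 1.45 between parents (adjusted p = 0.00572, or 0.0542 with batch as a block) and by -0.21 between lines (SE 0.26, adjusted p = 0.945). Of the C39B5 genes nearby, C39B5.2 and C39B5.5 had line differences of 0.18 (SE 0.25) and 0.43 (SE 0.22). Those of C39B5.14 and C39B5.6 were 0.10 (SE 0.15) and -0.03 (SE 0.05). Among other neighbours, the difference was 0.01 (SE 0.05) for gcn-1, a regulator of translation, and -0.03 (SE 0.03) for iffb-1, an initiation factor. daf-2, the insulin receptor gene, lies 0.755 Mb away and was 0.58 higher in CB4856 than in N2 (SE 0.11, adjusted p = 0.00289). Between positive and negative lines its difference was 0.04 (SE 0.10, adjusted p = 0.969).

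Gene families and pathways were read against the shares over all genes, 0.0929% called and 5.99% with an unadjusted p under 0.05. Among F-box and MATH-BTB genes, 1 of 270 rose (fbxa-103) and 1 fell (bath-40), together 0.741%, both on chromosome I, and 3.70% had an unadjusted p under 0.05. The median log2 difference was 0.01 for this list and -0.01 over all genes. Of 15 genes of insulin signalling and 18 effectors of DAF-16, the transcription factor that daf-2 restrains, 0 passed in edgeR, with 3 and 2 at an unadjusted p under 0.05. C-type lectins, chemoreceptors, xenobiotic enzymes, pals genes, Argonautes and both ribosomal protein lists had 0 called, out of 147, 113, 170, 20, 19, 76 and 66 tested. Their members with an unadjusted p under 0.05 numbered 19, 5, 12, 1, 0, 7 and 2. The share was 12.9% for C-type lectins, with a median log2 difference of 0.02, and 9.21% for cytosolic ribosomal proteins. DESeq2 called 3 genes besides those on chromosome I, and clec-61 and clec-86, both C-type lectin genes, were among them, named after their values were seen.

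Markers of developmental state were compared because the worms were whole larvae. In whole larvae, fewer cells of a type and less RNA per cell cannot be told apart. The permutation tests took no account of batch, over which the states were unevenly spread, so their p-values mix batch with state. The summed level of 6 yolk protein genes was 34298 CPM ± 10791 (SD, n = 42) in positive and 45598 CPM ± 12708 (SD, n = 28) in negative lines (permutation test, adjusted p = 0.00112 over 7 measures). Within batches the mean was lower in positive lines in 4 and higher in 3 of 7, so its direction was not the same in every batch. With the left-out lines counted as negative, chosen after seeing the data, it was lower in 6 and higher in 1 (permutation test, adjusted p = 0.00280). With batch in the model, 0 of the 6 yolk genes passed in edgeR and 0 had an unadjusted p under 0.05. The summed level of cuticle and moulting genes was 3216 CPM ± 731 against 2755 CPM ± 406 (permutation test, adjusted p = 0.00777), higher in positive lines in 5 and lower in 2 batches, and 0 of 35 passed in edgeR with batch in the model, 1 with an unadjusted p under 0.05. Gene counts per library, component 1, major sperm proteins, other sperm genes and oocyte genes had adjusted p of 0.112, 0.154, 0.606, 0.606 and 0.507. The part of the yolk and cuticle measures in the chromosome I result was not tested.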

How the data were processed

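The deposited values were whole-number read counts per gene from total RNA, made by the authors in the layout of STAR's gene counting. Per the submitters' processing notes, STAR (2.73a), FastQC and DESeq2 were used with WBcel235; parameters are not given in the sources used here. The unstranded column was used. Reads that named no gene stayed out of library sizes; gene counts were 22069702 to 24001627 per library, 92.6% of reads on average. The allowance made where a gene had no reads covers counting error only. Standard errors of the log2 differences also include the spread between lines or between parental libraries. Members, gene lists and tests were chosen with earlier results of these data known. Genes were named by rule: C39B5.10, daf-2, tested genes within 100 kb, and called genes (at most 10 in each direction off chromosome III).

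Differences used edgeR 4.0.16's quasi-likelihood test (R 4.3.3, filterByExpr, TMM, batch term) with Benjamini-Hochberg adjustment; DESeq2 1.42.0 was an alternative. Each line was 1 replicate. Parental libraries are not stated to be separate cultures, so p-values measure the spread between libraries. Batch numbers in the titles pair the parents; same-batch deviations correlated at 0.298, 0.0819, 0.569 and 0.148. Marker genes had at least 2 CPM in every library of 1 parent and at most 3 counts in the other. A test on simulated data used positive against negative lines and 15993 genes. It recovered 74% of genes changed 1.5-fold, 90% of those changed 2-fold, 100% of those changed 4-fold and 98% of those changed 8-fold. Of 190 calls, 9 were false. The simulated counts held no batch differences and no variation shared between genes, so these rates may not hold for the real libraries. Permutations numbered 100000, two-sided, and were made without regard to batch. Symbols and positions are from the Ensembl annotation of WBcel235; 46817 of 46904 identifiers matched.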

Additional observations from a re-analysis of the deposited data

Results flagged for a closer look

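In 29 groups of parental libraries, each of the 4 N2 or 7 CB4856 libraries at 1 gene, 5 held a library set apart from the others by its gap to the nearest value, where chance gives about 1 in 20 groups. C39B5.10 was at 39.8 CPM in the CB4856 library of batch 9, against 29.3 to 33.8 CPM in the others. ZK1053.3 was at 16.6 CPM in the CB4856 library of batch 2, against 2.94 to 8.82 CPM. F11C3.1 was at 2.67 CPM in the N2 library of batch 9, against at most 1.68 CPM in the others, and at 1.37 CPM in the CB4856 library of batch 3, against 0.845 to 1.02 CPM. exoc-8 was at 105.1 CPM in the CB4856 library of batch 3, against 86.2 to 91.0 CPM.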

How the results depend on the processing

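Between positive and negative lines, 15 genes passed, all on chromosome I. A required fold above 1.5 left 6, all on chromosome I, and a mean log2 CPM of at least 1 left 6, all on chromosome I. Without the batch term 535 genes passed, 86 on chromosome I, 53 on chromosome III and 13 within 2 Mb of C39B5.10, and 11 of the 15 were among them; states are unevenly spread over batches. Stricter limits, which keep 6 negative lines, gave 12 calls, 6 on chromosome I and 1 on chromosome III, and 4 of the 15. Counting the left-out lines as negative, chosen after seeing the data, gave 23, 20 of them on chromosome I. DESeq2, RLE factors, no filter, component 1 and a chromosome V marker term gave 20, 13, 16, 22 and 16. Leaving out a batch gave 11 to 14. For the left-out lines counted as negative, 1 of 7 developmental measures, yolk, passed in place of 2. Between parents, 2352 genes passed with the batch block, which also left out CB4856 libraries of batches without N2, against 5036 without it. The number was 3227 to 6544 when 1 library was left out (3227 without the N2 library of batch 8 and 3364 without that of batch 6). No line difference or parental difference of a named gene past its threshold changed sign. Genes with a few reads in a library were limited by depth, and right-end markers of chromosome I below 0.6 CPM were not scored.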
